A study of Mus musculus with 24 samples.

Results

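Chrna4, Hcn3 and Cyp46a1 are 3 genes best known from the brain that were read in control mouse liver and were close to lost in liver from mice on a methionine-choline deficient (MCD) diet. They are 3 of the 56205 gene rows of the table, and they were selected on their measured counts in the 2 diets, so the difference itself is described here and not tested. The libraries are poly(A) RNA of whole liver from 24 C57BL/6J mice, 12 on the MCD diet and 12 on its control diet, which a label calls chow and the study's methods list as the control for MCD, each for 20 weeks. Males and females were used in equal numbers, but no label gives the sex, litter or batch of a single library, and the age of these mice is not given in the sources used here. The study's methods use the same name as the labels, methionine-choline deficient, and list that diet as rich in fat. Its results section speaks of CDAHFD, another diet without choline, and the label's name is kept. An MCD diet limits the making of phosphatidylcholine and the export of fat from hepatocytes, and gives fat accumulation, inflammation and fibrosis, so it models only part of human steatohepatitis.

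Chrna4 encodes the alpha4 subunit of the neuronal nicotinic acetylcholine receptor, a cation channel opened by acetylcholine that is usually assembled with the beta2 subunit, Chrnb2. Hcn3 encodes a hyperpolarization-activated, cyclic nucleotide-gated channel, one of the pore proteins behind pacemaker currents in neurons and heart. Cyp46a1 encodes cholesterol 24-hydroxylase, the enzyme that turns brain cholesterol into 24-hydroxycholesterol, the form in which neurons export it; in liver, cholesterol is instead hydroxylated mainly by Cyp7a1 and Cyp27a1 on the way to bile acids. Fatty acid synthesis in liver is driven by Srebf1 and Mlxipl, transcription factors that respond to insulin and carbohydrate, and cholesterol synthesis by Srebf2.

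In the annotation of build GRCm38, Chrna4 (ENSMUSG00000027577) lies on the minus strand at chr2:181018380-181043546 with 5022 exon bases. Hcn3 (ENSMUSG00000028051) lies on the minus strand at chr3:89146074-89160196 with 4154 exon bases. Cyp46a1 (ENSMUSG00000021259) lies on the plus strand at chr12:108334381-108362234 with 3287 exon bases. Exons of Pklr, which encodes liver pyruvate kinase, overlap those of Hcn3 from the opposite strand over 711 bases at chr3:89146074-89146784, which is 17.1% of the Hcn3 exon bases. Exons of Chrna4 and Cyp46a1 overlapped no other gene.

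RefSeq promoters, 250 bases before to 50 bases after the RefSeq start of the gene, were listed for 2 of the 3 genes, Chrna4 and Cyp46a1. They are shown because both genes were read in control liver at levels that moved between animals, and the letters searched were those bound by factors of lipid and sterol synthesis or common in promoters. The Chrna4 promoter is at chr2:181039128-181039427 on the minus strand of GRCm38.p6, inside the annotated gene, and that of Cyp46a1 at chr12:108334066-108334365 on the plus strand, wholly before the annotated gene, so the RefSeq starts differ from those of the annotation for both genes. Each is printed 5′ to 3′ on the strand of its gene, with the matched letters (GGGCGG on either strand in both, and CCAAT on the reverse strand in Cyp46a1) in capitals.
Chrna4: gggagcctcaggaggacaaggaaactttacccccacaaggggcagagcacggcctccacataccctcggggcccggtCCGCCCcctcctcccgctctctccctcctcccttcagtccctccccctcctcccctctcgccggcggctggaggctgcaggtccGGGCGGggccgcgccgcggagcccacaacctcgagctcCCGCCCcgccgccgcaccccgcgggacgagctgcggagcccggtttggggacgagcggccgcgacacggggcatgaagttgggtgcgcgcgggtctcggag
Cyp46a1: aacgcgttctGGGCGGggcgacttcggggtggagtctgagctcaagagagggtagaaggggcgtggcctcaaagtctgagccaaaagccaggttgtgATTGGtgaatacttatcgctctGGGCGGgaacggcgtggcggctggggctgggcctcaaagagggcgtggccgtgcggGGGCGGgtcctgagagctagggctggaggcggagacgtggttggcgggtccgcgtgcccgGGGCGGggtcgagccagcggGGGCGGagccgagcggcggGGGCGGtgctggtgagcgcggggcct
The GC-rich GGGCGG, the letters of a GC box, occurred 3 times in the Chrna4 promoter and 6 times in that of Cyp46a1, and at least once in 35.7% of the 32851 promoters of this length. CCAAT occurred 1 time, in Cyp46a1 alone, and in 37.4% of all promoters. The E-box CACGTG, the sterol element TCACNCCAC, the nuclear receptor half-site AGGTCA and the TATA box TATAAA, searched on both strands, had 0 matches in either promoter and were held by 7.15%, 1.24%, 16.3% and 13.6% of all promoters. GC content was 74.3% in Chrna4 and 70.3% in Cyp46a1 against a median of 52.7% over all promoters. A match or its absence describes only these letters in these windows.

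Total counts per library ran from 16388650 to 24915175, and all values below are CPM (counts per 1e6 library counts) on library sizes scaled by TMM factors. Those factors were 0.642 to 0.973 in control and 1.07 to 1.26 in MCD livers, so scaling bears on every comparison of the diets. Of 14109 genes tested with edgeR's quasi-likelihood test, 2712 (19.2%) were higher and 2688 (19.1%) lower in MCD liver where a call needed an FDR (Benjamini-Hochberg) of at most 0.01 and a log2 fold change beyond 0.5 in size. The split was 3261 higher and 1710 lower with upper-quartile factors and 4539 higher and 848 lower with total counts alone, which moved the median log2 fold change of all genes from -0.10 to 0.27. Control replicates 4 and 12 stood apart from the other control livers. Replicate 4 was the lowest control liver for all 3 genes and replicate 12 had the lowest TMM factor, and the results below that turn on either are also given without it.

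Chrna4 was read in every control liver and was at or near the floor in MCD liver. Raw counts in control livers ran from 54 (replicate 4) through a median of 348 to 1541 (replicate 3), and in MCD livers from 0 (replicate 10) through a median of 3 to 8 (replicate 3). In CPM the control livers had a lowest value of 3.06, a median of 21.2 and a highest of 86.3, and the highest MCD liver had 0.326. Control replicates 3 and 5, at 86.3 and 77.2 CPM, stood well above the next, replicate 8 at 38.3 CPM, and the lowest control lay 9.37-fold above the highest MCD liver. The mean was 27.8 ± 27.3 CPM (SD, n = 12) in control and 0.136 ± 0.0947 CPM (SD, n = 12) in MCD liver, which is 0.488% of control. The fitted log2 fold change was -7.62 (SE 0.60), the lowest of all genes lower in MCD liver. In 9 of the 12 MCD libraries Chrna4 had 3 counts or fewer, taken here as the floor of resolution, and the 12 together held 39 counts, so levels among MCD livers were hardly resolved. That floor covers counting error alone, because the reads carry no stated molecular identifier.

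Hcn3 was the most even of the 3 genes in control liver. Its counts ran from 217 (replicate 4) through a median of 1239 to 1622 (replicate 12) in control, and from 59 through a median of 114.5 to 256 in MCD livers. In CPM the control livers ran from 12.3 through 69.4 to 122.8, and the MCD livers from 2.59 through 5.10 to 9.31. Of the control livers 7 lay between 60.1 and 83.5 CPM, replicate 12 above them, replicates 1, 2 and 7 between 26.6 and 39.4 CPM, and only replicate 4 came near the highest MCD liver, 1.32-fold above it. The mean was 62.8 ± 30.1 CPM (SD, n = 12) in control and 4.87 ± 1.80 CPM (SD, n = 12) in MCD liver, or 7.75% of control, with a log2 fold change of -3.68 (SE 0.28).

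Cyp46a1 lay between them in spread. Its counts ran from 81 (replicate 4) through a median of 629 to 1831 (replicate 3) in control and from 21 (replicate 11) through a median of 75 to 88 (replicate 4) in MCD livers. Control livers had a lowest level of 4.58, a median of 34.3 and a highest of 102.6 CPM, and MCD livers a lowest of 1.10, a median of 2.95 and a highest of 3.71 CPM. Control replicates 3 and 6 were highest at 102.6 and 99.2 CPM, followed by replicates 2 and 5 at 70.1 and 69.0 CPM, while replicate 1 was at 13.4 CPM and replicate 4 lay 1.23-fold above the highest MCD liver. That gap depended on the scaling: with total counts alone control replicate 4 was at 4.40 CPM and MCD replicate 8 at 4.66 CPM, so the groups overlapped by these libraries. The mean was 47.1 ± 31.6 CPM (SD, n = 12) in control and 2.75 ± 0.856 CPM (SD, n = 12) in MCD liver, or 5.83% of control, with a log2 fold change of -4.09 (SE 0.37).

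**Figure D1:**
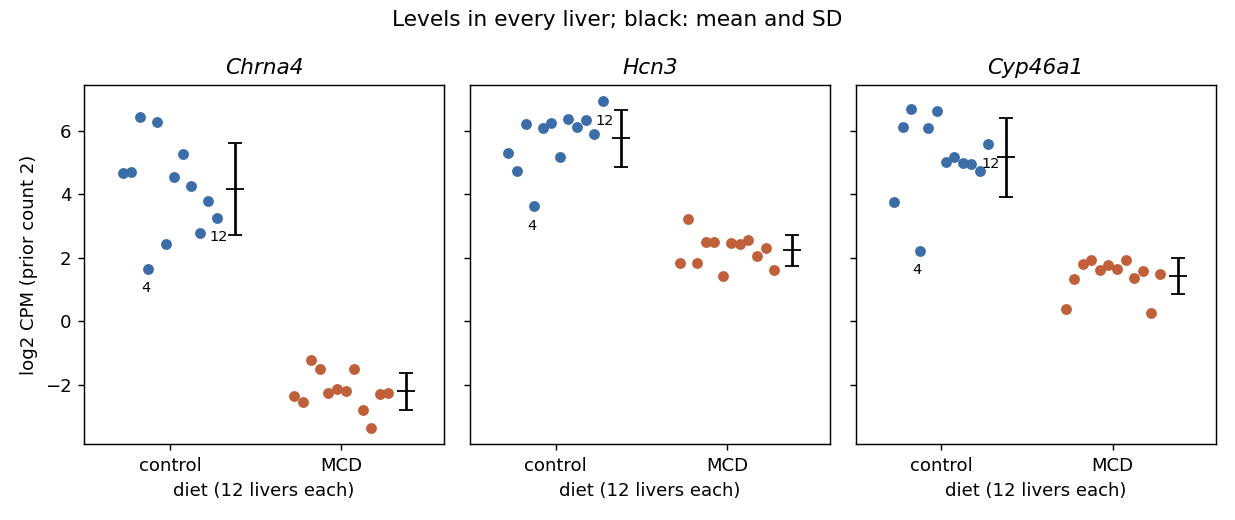
Level of Chrna4, Hcn3 and Cyp46a1 as log2 CPM (prior count 2) in each of 12 control and 12 MCD livers, with the mean and SD of each diet in black and control replicates 4 and 12 marked by number. On this TMM scale every MCD liver lies below every control liver for all 3 genes (for Cyp46a1 not with total counts alone), and control replicate 4 is the lowest control in each panel.

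For all 3 genes every MCD liver was below every control liver with TMM factors, an arrangement that 4.88% of all tested genes had, with 9.5% arranged the other way round. With total counts alone it held for Chrna4 and Hcn3 (the lowest control 8.12-fold and 1.07-fold above the highest MCD liver) but not for Cyp46a1 (0.943-fold), and for 0.688% of all genes. The 3 genes were chosen as close to lost in MCD liver, so the arrangement is a description. Without control replicate 4 the MCD mean was 0.452% of control for Chrna4, 7.22% for Hcn3 and 5.39% for Cyp46a1. The narrowest gap with TMM factors was that of Cyp46a1, with 4.58 CPM in the lowest control and 3.71 CPM in the highest MCD liver. The choice on these counts named no numerical limit, so no values just outside one can be given.

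Levels of different genes can be compared only per exon length. In control liver Hcn3 had 15.1 ± 7.24 and Cyp46a1 14.3 ± 9.61 CPM per kilobase of exon (SD, n = 12), which did not differ beyond their spread, and Chrna4 had 5.54 ± 5.43. Those levels exceeded 81.8%, 81.0% and 63.1% of all genes ranked in control. In MCD liver the order was again Hcn3 at 1.17, Cyp46a1 at 0.836 and Chrna4 at 0.0270 CPM per kilobase. These exceeded 27.4%, 21.3% and 0.00716% of all genes ranked in MCD liver.

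Spread within a diet was wide in control liver for all 3 genes. The coefficient of variation over the 12 control livers was 98.0% for Chrna4, 67.1% for Cyp46a1 and 47.9% for Hcn3, while counting error alone would give 4.51%, 3.51% and 3.07%. On the log2 scale the control SD was 1.47 for Chrna4, 1.26 for Cyp46a1 and 0.91 for Hcn3. Those SDs were above 99.5%, 99.4% and 98.2% of the genes of like abundance in control (within 0.5 of the mean log2 CPM), whose median SD was 0.30 to 0.32. Without control replicate 4 the SDs were 1.29, 0.89 and 0.64, above 99.3%, 98.3% and 96.5% of such genes, and the coefficients of variation 91.1%, 58.9% and 39.7%. Without replicate 12 the SDs were 1.51, 1.31 and 0.87. In MCD liver the SD was 0.50 for Hcn3 and 0.55 for Cyp46a1, above 94.0% and 91.1% of genes of like abundance. The coefficient of variation left after counting error in MCD liver was 35.8% for Hcn3 and 28.7% for Cyp46a1. For Chrna4 in MCD liver the coefficient of variation was 69.7%, where counting error alone would give 55.5%.

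Part of the Hcn3 counts may belong to Pklr, because the exons overlap on opposite strands. The study's RNA sequencing methods name a stranded library kit and the quantifiers EQP and PISCES, but for reads aligned to the human genome, and whether the mouse counts used strand is not given in the sources used here. Pklr was itself 706.1 ± 220.6 CPM in control and 108.2 ± 26.0 CPM in MCD liver (SD, n = 12), a fall of log2 2.71 by edgeR's quasi-likelihood test (FDR 3.83e-12). Per 100 Pklr counts, Hcn3 had between 4.71 and 29.2 counts in control livers with a median of 7.87, and between 3.12 and 6.50 counts in MCD livers with a median of 4.52. Control replicate 12 was far above the rest at 29.2, the next being replicate 10 at 10.7, and control replicates 1, 2, 4 and 7 lay inside the MCD range. The correlation of log2 CPM of Hcn3 and Pklr was 0.659 over the 12 control livers, 0.948 without replicate 12 and 0.180 without replicate 4, and 0.788 over the 12 MCD livers. These correlations describe libraries that share depth and scaling as well as the overlapping exons, and how many reads the genes share was not tested.

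**Figure D2:**
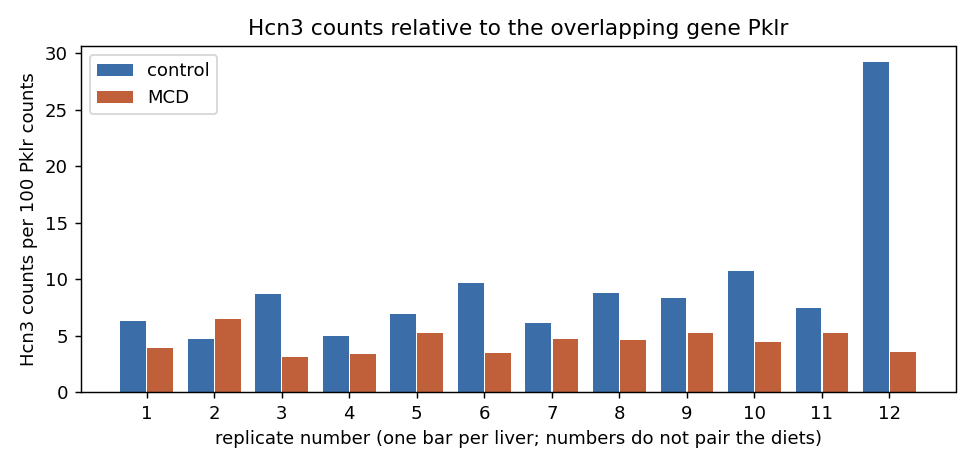
Hcn3 counts per 100 Pklr counts in each liver, with blue bars for control and orange bars for MCD livers. Bars run from 4.71 to 29.2 in control and 3.12 to 6.50 in MCD livers, and the tallest is control replicate 12.

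The next question was whether, among control livers, the 3 genes moved with the lipogenic genes. A lipogenic score was the mean standardized log2 CPM of 20 genes of fatty acid synthesis, desaturation and triglyceride assembly; it held none of the 3 genes, nor Pklr. Over the 12 control livers the score had 10 livers below and 2 (replicates 3 and 5) above a gap of 28.7% of its range, with replicate 4 lowest. Chrna4 followed it closely. Its counts rose by 1.41 on the log2 scale per SD of the score (SE 0.12; FDR 0.000104 over all genes, edgeR's quasi-likelihood test), and it ranked first of 14109 genes by p-value, of which 10 (0.0709%) passed an FDR of 0.05. Among the other 9 were Elovl6, Pnpla3, Fasn and Acss2, which belong to the score, and Acacb, Lss, Insig1 and Ugt1a5, which do not. With any 1 control liver left out the Chrna4 slope stayed between 1.24 and 1.48, and without replicate 4 it was 1.24 with an FDR of 0.000714. Hcn3 had a slope of 0.01 (SE 0.22; FDR 0.991) and Cyp46a1 of 0.45 (SE 0.27; FDR 0.819), and whether the slopes of the 3 genes differ from each other was not tested.

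As a correlation over the 12 control livers, log2 CPM of Chrna4 and the lipogenic score gave r = 0.958 and rho = 0.958 (two-sided permutation test, p = 2e-05 for each; 0.00048 adjusted over 24 relations of the 3 genes with 4 scores in 2 diets). Leaving out replicates 4 and 5, the farthest from the median of the score, gave r = 0.946 (adjusted permutation p = 0.0048). Leaving out the pair of high livers, 3 and 5, gave r = 0.915. With total counts alone r over the 12 livers was 0.878 (adjusted permutation p = 0.00432). For Cyp46a1 r was 0.530 and rho 0.441 (permutation p = 0.0767 and 0.154; adjusted 0.307 and 0.615), and r was 0.163 without replicates 4 and 5. For Hcn3 r was 0.228 and rho -0.04 (adjusted permutation p = 0.711 and 0.991), and r was -0.37 without those livers. The Cyp46a1 and Hcn3 values thus rested on the outer livers, of which replicate 4 was the lowest in both the score and the 3 genes.

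**Figure D3:**
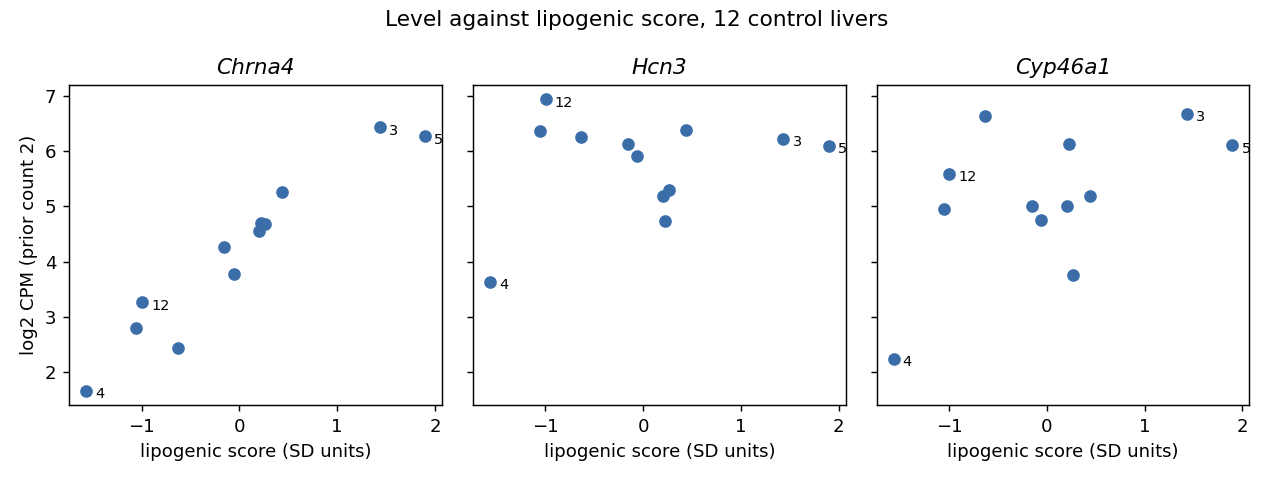
Level of each gene (log2 CPM, prior count 2) against the lipogenic score in SD units over the 12 control livers, with replicates 3, 4, 5 and 12 marked by number. Chrna4 lies along 1 rising line (r = 0.958), while Hcn3 (r = 0.228) and Cyp46a1 (r = 0.530) scatter apart from the low point of replicate 4.

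Single lipogenic genes gave the same order. Chrna4 correlated positively with 19 of the 20 over the control livers, with a median r of 0.712, against a median of 0.0046 with all genes, and 7 passed an adjusted permutation p of 0.05 over 120 relations, 6 of them by rho as well. They were Acss2, the cytosolic acetyl-CoA synthetase, at r = 0.928, the elongase Elovl6 at 0.888, the lipid droplet protein Pnpla3 at 0.888, the desaturase Fads2 at 0.850, fatty acid synthase Fasn at 0.815, malic enzyme Me1 at 0.789 and the desaturase Fads1 at 0.785. The driving factors were weaker, with r = 0.457 for Srebf1 and 0.0912 for Mlxipl, and the 1 negative value was -0.43 for Tkfc, triokinase (adjusted permutation p = 0.326, 0.852 and 0.349). The 7 became 11 after regression on the sex-linked score, 4 without replicates 3 and 5, and 1 (Acss2, r = 0.884) when each correlation was taken without its 2 outermost livers. Hcn3 had a median r of 0.140 and Cyp46a1 of 0.389 over the same 20 genes, and 0 of them passed for either gene, with 0 of the 20 for Hcn3 and 2 for Cyp46a1 at an unadjusted permutation p under 0.05. Without control replicate 4 the median r was 0.687 for Chrna4, -0.18 for Hcn3 (3 of 20 positive, against 13 with it) and 0.278 for Cyp46a1, so the sign for Hcn3 turned on that liver. The numbers past the adjusted threshold without it were 8 for Chrna4, 1 for Hcn3 and 1 for Cyp46a1. Genes within the list move together, so the 20 are not independent of each other.

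**Figure D4:**
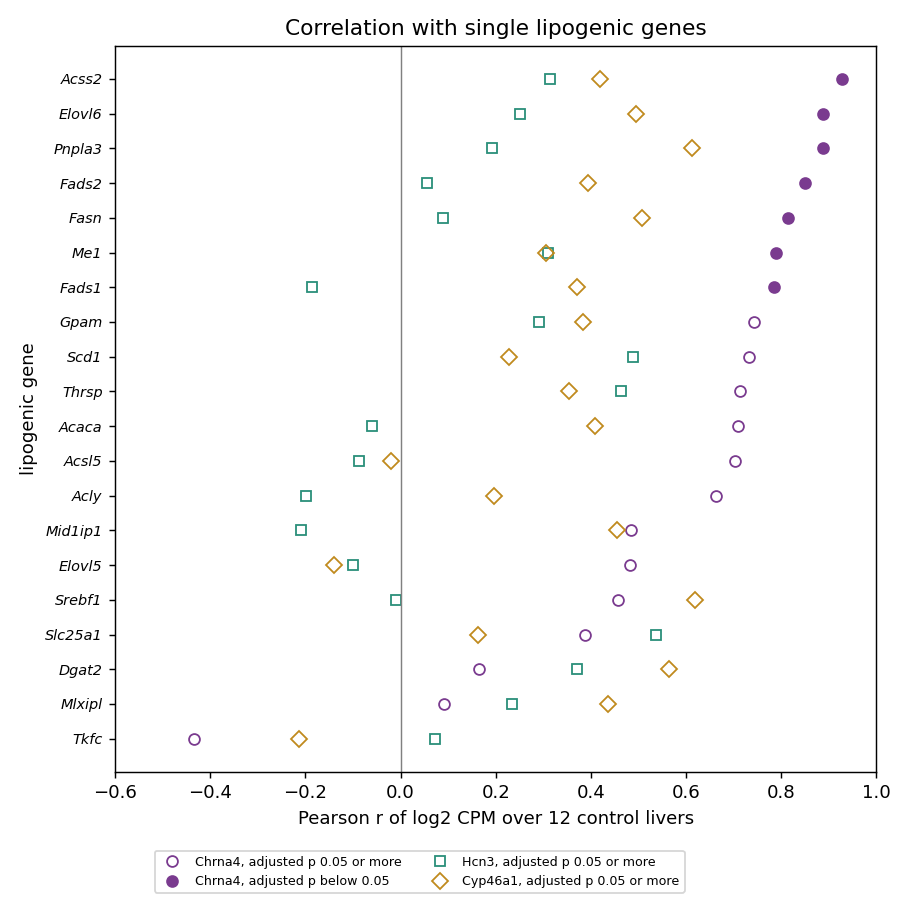
Pearson r of log2 CPM of Chrna4 (circles), Hcn3 (squares) and Cyp46a1 (diamonds) with each of 20 lipogenic genes over the 12 control livers, filled where the adjusted permutation p is below 0.05. The filled circles run from 0.785 to 0.928 and all belong to Chrna4.

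Genes of cholesterol synthesis moved with Chrna4 in control liver as well, though less firmly. The slope on a score of 24 such genes was 1.33 (SE 0.26), with an FDR of 0.111 over all genes by edgeR's quasi-likelihood test, where 15 genes (0.106%) passed. The FDR was 0.0466 with total counts alone, 0.00693 with the sex-linked score added to the fit, and 0.00470 without control replicate 3, so the call depended on the setting. The correlation was r = 0.852 and rho = 0.769 (permutation p = 0.00045 and 0.0048; adjusted 0.0054 and 0.0438), and r = 0.717 without replicates 4 and 6 (adjusted permutation p = 0.159). Hcn3 and Cyp46a1 had slopes of 0.0047 (SE 0.22; FDR 0.998) and 0.0081 (SE 0.29; FDR 0.996).

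On a score of 14 genes of the fasting response, 0 of all genes (0%) passed in control liver by edgeR's quasi-likelihood test, 145 having an unadjusted p under 0.05, and the slopes were -0.59 for Chrna4, -0.38 for Hcn3 and -0.44 for Cyp46a1 (SE 0.38, 0.19 and 0.31; unadjusted p = 0.141, 0.0590 and 0.174). On the score of 11 hepatocyte markers, with which 361 genes (2.56%) moved, the slopes were -0.62, 0.05 and -0.36 (SE 0.35, 0.20 and 0.31; FDR 0.281, 0.890 and 0.490). Neither score gave a call for the 3 genes.

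In MCD liver no score gave a call for any of the 3 genes, against a background of 16 genes (0.113%) on the lipogenic score, 1 (0.00709%) on the sterol score, 250 (1.77%) on the fasting score and 1163 (8.24%) on the hepatocyte score. On the lipogenic score the slopes were 0.61 for Chrna4 (SE 0.26; FDR 0.236), 0.28 for Cyp46a1 (SE 0.12; FDR 0.261) and -0.02 for Hcn3 (SE 0.13; FDR 0.955). The correlations with it were r = 0.664 and rho = 0.671 for Chrna4 (adjusted permutation p = 0.146 and 0.116; r = 0.792, adjusted 0.0186, with total counts alone) and r = 0.590 and rho = 0.762 for Cyp46a1 (adjusted permutation p = 0.307 and 0.0438). MCD replicate 4 lay alone above a gap of 41.4% of that score's range. Without replicates 4 and 11 r was 0.684 for Chrna4 and 0.377 for Cyp46a1, and after regression on the sex-linked score r was 0.328 for Chrna4 and 0.190 for Cyp46a1. Among single lipogenic genes in MCD liver, Srebf1, the fatty acid synthesis factor, passed for Cyp46a1 at r = 0.762 and rho = 0.923 (adjusted permutation p = 0.0331 and 0.003), Acss2 for Cyp46a1 at r = -0.79 (adjusted permutation p = 0.0331, and 0.211 for rho), and 0 of 20 for Hcn3. None of these passed after regression on the sex-linked score. Srebf1 also had r = 0.775 with Chrna4 (adjusted permutation p = 0.0331), a value that compares Chrna4 counts of which 9 of 12 lay at or below the floor of 3 and is not read as a result. The low Chrna4 counts limit what its MCD values can show.

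**Figure D5:**
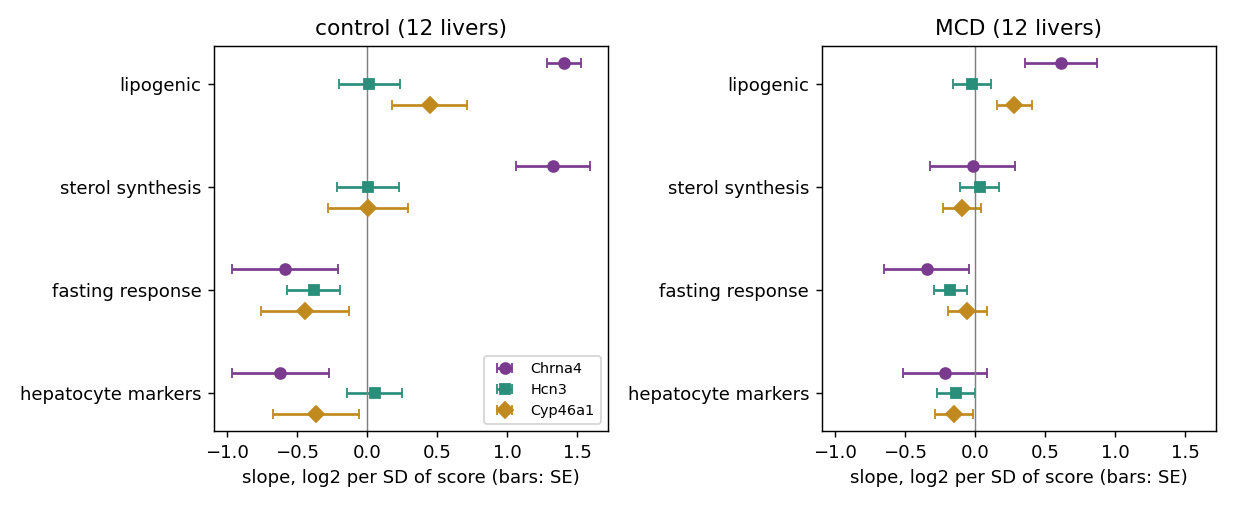
Slope of each gene on 4 gene-list scores within control (left) and MCD (right) livers, in log2 units per SD of the score, with bars of 1 SE. Chrna4 on the lipogenic score in control, 1.41, is the only slope of the 24 to pass an FDR of 0.05.

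Whether the 3 genes moved as 1 unit could not be settled from 12 control livers. Each pair had a positive r there, and none passed after adjustment. Between Hcn3 and Cyp46a1 r was 0.643 and rho 0.364 (permutation p = 0.0281 and 0.244; adjusted over 6 relations 0.168 and 0.489), and r was 0.165 without replicates 3 and 4. Between Chrna4 and Cyp46a1 r was 0.496 (adjusted permutation p = 0.302), and between Chrna4 and Hcn3 0.275 (adjusted permutation p = 0.588); they were -0.09 without replicates 3 and 4 and -0.23 without replicates 2 and 4. In MCD livers Chrna4 and Cyp46a1 had r = 0.346 and rho = 0.783 (adjusted permutation p = 0.533 and 0.0256), and r = 0.745 without replicates 1 and 11 (adjusted permutation p = 0.0776). With Chrna4 at or below the floor in 9 of these 12 libraries that rho is given as a value and not read as a result. Between Chrna4 and Hcn3 r was -0.11 (adjusted permutation p = 0.872), and between Hcn3 and Cyp46a1 r was 0.0261 there (adjusted permutation p = 0.938).

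Both sexes were used, and expression of Xist against 4 Y-linked genes, taken only as a score scaled from 0 to 1, fell in separate clusters, so no correlation with it is given. Across the full range of the score the fitted log2 differences in control were 1.05 for Chrna4, -0.61 for Hcn3 and 1.15 for Cyp46a1 (SE 0.70, 0.41 and 0.52; FDR 0.414, 0.418 and 0.230, edgeR's quasi-likelihood test). In MCD liver they were 1.69, -0.15 and 0.78 (SE 0.62, 0.32 and 0.26; FDR 0.158, 0.864 and 0.118). None passed an FDR of 0.05, which 465 genes (3.3%) did in control and 601 (4.26%) in MCD liver. No library was assigned a sex.

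Ranked by r over the 12 control livers among 12649 genes of at least 1 CPM, the 5 genes most like Chrna4 were Acss2 at 0.928, Acacb, a mitochondrial acetyl-CoA carboxylase, at 0.914, the sterol cyclase Lss at 0.893, Elovl6 at 0.888 and Pnpla3 at 0.888. Of its 100 most similar genes 13 were among the 20 lipogenic genes and 14 among the 24 sterol genes, where 0.791% of all ranked genes stand in the first 100. For Hcn3 they were Gm10804 at 0.923, Vac14, a scaffold of phosphoinositide synthesis, at 0.904, Sema5b at 0.901, Dele1 at 0.864 and the peroxisomal import receptor Pex5 at 0.861. For Cyp46a1 they were Cnnm2, a magnesium transporter gene, at 0.890, E030042O20Rik at 0.858, Ccdc159 at 0.856, the acyl-CoA thioesterase Acot11 at 0.848 and the protease Pcsk6 at 0.847. Of the first 100 for Hcn3 and for Cyp46a1, 0 belonged to either list. Without control replicate 4, E030042O20Rik, Acot11 and Pcsk6 fell to ranks 623, 854 and 422 for Cyp46a1 and Pex5 to 77 for Hcn3, while Acss2 stayed first for Chrna4. These r are descriptions over 12 livers that share depth and scaling.

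Of 15 other nicotinic receptor subunits, 3 passed the filter on low counts, and 8 had 0 counts in every control library. Chrnb2, the usual partner of Chrna4, was lower in MCD liver, at 4.82 ± 1.03 CPM in control and 1.73 ± 0.583 CPM in MCD liver (SD, n = 12; log2 fold change -1.47, SE 0.18, FDR 8.2e-08, edgeR's quasi-likelihood test), with no overlap of the groups. Chrnb1, the beta subunit of the muscle receptor, was higher, at 0.687 ± 0.403 and 6.47 ± 1.61 CPM (log2 fold change 3.21, SE 0.24, FDR 1.94e-11). At 0.687 CPM in control, it passed the filter on low counts through its MCD level. With no filter 1 of 9 subunits (11.1%) was higher and 2 (22.2%) were lower, against 13.5% and 9.62% of all genes. The alpha subunit gene Chrna2 was not called at 9.67 ± 4.22 and 6.85 ± 2.30 CPM (log2 fold change -0.49, FDR 0.0531). Per kilobase of exon in control liver Chrna2 had 2.55 and Chrnb2 0.575 CPM, against 5.54 for Chrna4. Chrnb2 did not share the spread of Chrna4 in control liver, with r = -0.03 over the 12 livers and -0.30 without replicate 4.

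Of the other channels and partners of Hcn3, 3 of 8 listed genes were tested. Of these, 2 were higher in MCD liver, against 19.2% of all genes, or all 3 with total counts alone, against 32.2%. Hcn2, with a minimum of 3 counts in control livers, passed the filter on low counts through its MCD level. With no filter 4 of 8 (50%) were higher, against 13.5% of all genes. Hcn2 was at 0.851 ± 0.496 CPM in control and 1.68 ± 0.541 CPM in MCD liver (log2 fold change 0.99, SE 0.27, FDR 0.00279, edgeR's quasi-likelihood test), and the actin crosslinker Flna, which binds HCN channels, at 33.9 ± 9.34 and 120.2 ± 17.8 CPM (log2 fold change 1.83, FDR 8.85e-12). Kctd3, an auxiliary protein of Hcn3, was at 13.1 ± 1.63 and 16.2 ± 1.17 CPM (log2 fold change 0.30, FDR 0.000533), below the fold limit. Hcn4 had at most 1 count in any library.

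Of 16 tested genes of sterol hydroxylation, bile acid synthesis and sterol export, 9 (56.2%) were lower and 1 (6.25%) higher in MCD liver, against 19.1% and 19.2% of all genes, with a median log2 fold change of -0.67 against -0.10 over all genes. Cyp7a1, the rate-limiting enzyme of bile acid synthesis, was at 141.2 ± 77.4 and 58.5 ± 23.7 CPM (log2 fold change -1.27, SE 0.28, FDR 0.000291, edgeR's quasi-likelihood test), and Cyp27a1, sterol 27-hydroxylase, at 478.5 ± 146.6 and 262.1 ± 28.3 CPM (log2 fold change -0.87, FDR 9.13e-07). Akr1d1, Hsd3b7, the sterol transporters Abcg5, Abcg8 and Abca1, Soat2 and Lpcat3 were the others that fell, by 0.50 to 1.28 on the log2 scale. The exporter Abcg1 rose by 0.93 (FDR 2.69e-06). Cyp39a1, the hydroxylase that takes 24-hydroxycholesterol as its substrate, was not called, at 41.0 ± 13.8 and 44.5 ± 7.01 CPM (log2 fold change 0.12, FDR 0.485). Nor were Cyp7b1, Cyp8b1, Mylip or the oxysterol receptors Nr1h3 and Nr1h2, with log2 fold changes of -0.86, -0.82, -0.23, -0.27 and -0.05, those of Mylip, Nr1h3 and Nr1h2 turning positive with total counts alone, when 3 genes of the list (18.8%) were lower against 6.01% of all genes. Ch25h had too few counts to be tested. Cyp46a1, at a log2 fold change of -4.09, lay below all 16, but it was chosen as close to lost in MCD liver, so its place is a description.

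All 20 lipogenic genes were lower in MCD liver by edgeR's quasi-likelihood test, or 18 of 20 with total counts alone, with a median log2 fold change of -1.78. Scd1, stearoyl-CoA desaturase, fell most, from 18092 ± 8447 to 407.2 ± 177.5 CPM (SD, n = 12; log2 fold change -5.47, SE 0.35, FDR 1.64e-12). Pnpla3, Me1, Thrsp, Fasn and Elovl6 followed with log2 fold changes of -4.63, -3.32, -3.22, -3.18 and -2.93. Of 24 genes of cholesterol synthesis and uptake 20 were lower and 0 higher (median -1.07; 13 lower with total counts alone), led by Fdps at -2.07, Tm7sf2 at -1.68 and Stard4 at -1.44. Of 14 fasting genes 3 (21.4%) were called in each direction, near the 19.2% and 19.1% of all genes, and they were higher (Igfbp1 at 2.24, Pdk4 at 1.31, Fgf21 at 1.16) or lower (among them Acot1 at -1.17 and Cpt1a at -0.64). The lists were chosen with earlier results of these libraries known, so their directions are no independent evidence.

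Among the genes beside the 3 on their chromosomes, Pklr, Fdps, Col20a1 and Hhipl1 were lower, Eml1 higher and Clk2 not called (log2 fold change 0.01, edgeR's quasi-likelihood test). Col20a1, 16 bases from Chrna4, was at 2.28 ± 0.982 and 0.739 ± 0.298 CPM (SD, n = 12; log2 fold change -1.61, FDR 4.6e-06), and had r = -0.21 with Chrna4 over the control livers. Hhipl1, 3511 bases from Cyp46a1 on the same strand, was at 6.46 ± 3.22 and 2.55 ± 0.637 CPM (log2 fold change -1.34, FDR 4.79e-06), and had r = 0.811 with Cyp46a1 over the control livers and 0.866 without replicate 4. Eml1, 8722 bases on the other side, was at 4.52 ± 1.42 and 10.5 ± 2.48 CPM (log2 fold change 1.21, FDR 4.7e-07). Its r with Cyp46a1 over the control livers was 0.0755, and 0.314 without replicate 4.

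In whole liver, fewer cells of a type and less RNA per cell cannot be told apart, so markers of the cells a liver can hold are given beside the 3 genes. Hepatocyte markers, 11 of 12 found by symbol, summed to 80881 to 181894 CPM in control and 59291 to 85990 CPM in MCD livers, and 6 of the 11 were lower (among them Ttr, Cebpa, Apob, Fgb and Alb, by 0.62 to 0.85 on the log2 scale), against 19.1% of all genes, or 0 of the 11 against 6.01% with total counts alone. Neuron markers summed to 9.41 to 18.0 CPM in control and 16.7 to 28.6 CPM in MCD livers, so their sum was not lower where the 3 genes were. Of 21 neuron markers 5 passed the filter on low counts and 2 (Map2 and Uchl1) were higher, or 3 of 5 with relative log expression or upper-quartile factors, total counts alone or DESeq2. Uchl1, at a median of 2 counts in control and 32 in MCD livers, passed that filter through its MCD level, and with no filter 3 of 18 neuron markers (16.7%) were higher against 13.5% of all genes, so their share lay near the background. Snap25, Chga, Th and Dbh were at 0 counts in every control library, and Syt1 made up most of the sum at 9.98 CPM in control. Glia markers summed to 9.73 to 16.0 and 17.0 to 33.7 CPM, with S100b and Sox10 at a median of 1 count or less. Of 9 glia markers 5 were tested and 2 (Mbp and Ncam1) were higher, against 19.2% of all genes. Ncam1, at a median of 3 counts in control and 88.5 in MCD livers, passed the filter through its MCD level. With no filter 3 of 9 glia markers (33.3%) were higher against 13.5% of all genes.

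Markers of other cells changed with diet too, to be read against the 19.2% of all genes called higher and 19.1% called lower (32.2% and 6.01% with total counts alone). Infiltrating myeloid markers summed to 105.3 to 292.2 CPM in control and 1872 to 4194 CPM in MCD livers, with 9 of 9 higher, mesenchymal markers to 164.3 to 541.5 and 768.1 to 1369 CPM (7 of 8 higher, 1 lower), and cholangiocyte markers to 30.1 to 146.4 and 451.6 to 903.8 CPM (5 of 5 higher). Spp1, which is also among the 9 myeloid markers, made up 80.1% to 94.0% of the cholangiocyte sum in control and 89.4% to 91.5% in MCD livers, and the other 4 markers summed to 3.71 to 14.8 and 40.0 to 95.6 CPM. Lymphocyte markers summed to 2.83 to 10.5 and 9.14 to 22.5 CPM (4 of 6 higher), endothelial markers to 189.9 to 282.8 and 105.3 to 174.9 CPM (5 of 6 lower), and Kupffer cell markers to 161.4 to 477.9 and 120.8 to 331.8 CPM (5 of 7 lower, 1 higher). With total counts alone 2 of 6 endothelial and 2 of 7 Kupffer cell markers were lower, where 6.01% of all genes were. The part of these cells in the levels of the 3 genes was not tested.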

How the data were processed

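Poly(A) RNA of whole livers was sequenced. The submitters' processing notes name bcl2fastq, STAR 2.7.3a and the build mm10; the study's methods name a stranded kit, EQP and PISCES for reads aligned to the human genome, and the counting of the mouse reads and its use of strand are not given in the sources used here. The values the authors deposited are raw counts per Ensembl gene, 1 column per library, without normalization. Symbols, exon lengths and coordinates were taken by Ensembl identifier from a GENCODE annotation of GRCm38, which named 51745 of 56205 rows.

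Genes were kept with filterByExpr by diet, scaled by TMM factors and tested with edgeR 4.0.16 (glmQLFit, glmQLFTest, R 4.3.3) over all genes. Log2 CPM used a prior count of 2. For the 3 genes the diet difference was fitted but not tested. Within each diet counts were regressed on list scores (FDR 0.05). Correlations used two-sided permutation tests with 100000 resamples (scipy 1.17.1), adjusted by Benjamini-Hochberg. Fits were tested on simulated data. Where nothing shows separate animals beyond the labels, p-values measure the spread between these libraries.

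The 3 genes and the lists (related families, lipid pathways, cell markers) were chosen with earlier results of these data known. Besides the 3 genes, the text names their neighbours in the annotation, the genes of the related families, up to 6 genes of each other list by largest change among those called or by largest correlation, and the 5 genes of most similar pattern in control; the other genes past the lipogenic slope limit, Srebf1, Mlxipl and the markers named for a count of 0 were named after their values were seen. Replicate numbers are shared between the diets, but no label says what they share and they were not used as pairs. Alternatives were other scaling factors, no low-count filter, DESeq2 1.42.0, limma 3.58.1 (voom), a replicate block, the sex-linked score as covariate, other prior counts and each library left out; leaving out control replicates 4, 12, both, or 3 and 5, and taking Spp1 out of the cholangiocyte sum, were chosen after seeing the data. Figures were drawn with matplotlib 3.10.9. Some listed genes are not reported here.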

Additional observations from a re-analysis of the deposited data

How the results depend on the processing

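The diet difference of Chrna4, Hcn3 and Cyp46a1 kept its direction in all 27 values under other settings and all 72 with 1 library left out, counted over the 3 genes, and in the latter the log2 fold change ran from -7.78 to -7.27, -3.79 to -3.51 and -4.20 to -3.89. The replicate numbers were not taken to pair the diets, since no label says what they share and 8 of 12 same-number pairs, not all, correlated above 0.1 (-0.28 to 0.349, median 0.233). The 132 pairs of different numbers had a median of -0.059, with 53 (40.2%) above 0.1. Of 12 control libraries 2 correlated best with their own number. Numbers 2 (-0.28) and 8 (-0.21) had sex-linked scores in opposite clusters in the 2 diets. Those scores were 0.966 and 0.0387 in control and 0.0965 and 0.919 in MCD livers. Each other number had scores in the same cluster in both diets. Whether that score accounts for the pair correlations was not tested. With the number as a replicate block 2781 genes were higher and 2430 lower. Depth limits Chrna4 in MCD liver, with 3 or fewer counts in 9 libraries. The alternatives without control replicates 4, 12, 4 and 12, or 3 and 5 were chosen after seeing the data, and the cause of the changes below was not tested.

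With total counts alone the lowest control was 0.943-fold the highest MCD level for Cyp46a1. There 4539 genes (32.2%) were higher and 848 (6.01%) lower. The lower counts were 18 of 20 lipogenic, 13 of 24 sterol synthesis, 1 of 14 fasting and 3 of 16 sterol hydroxylation and export genes. For markers they were 0 of 11 hepatocyte, 2 of 7 Kupffer cell, 0 of 8 mesenchymal and 2 of 6 endothelial. Mylip, Nr1h3 and Nr1h2 turned to 0.10, 0.12 and 0.34. With upper-quartile factors 1710 genes (12.1%) and 3 of 6 endothelial markers were lower, and Nr1h2 was 0.10. Nr1h2 was 0.0040 with relative log expression factors, 0.0042 with DESeq2 and 0.12 without control replicates 4 and 12. With no low-count filter 13.5% of all genes were higher and 9.62% lower. There 2 of 17 genes of sterol hydroxylation and export (11.8%) were higher. Of nicotinic subunits 2 of 9 (22.2%) were lower, and of HCN genes and partners 4 of 8 (50%) were higher. Of 7 Kupffer cell markers 3 were lower under the replicate block, against 17.2% of all genes. Without control replicates 4 and 12 it was 3 of 7, against 18.0%.

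The Chrna4 slope on the sterol score in control was 1.38 with total counts alone and 1.38 with the sex-linked covariate, both past the threshold, and 1.09 to 1.43 with 1 library left out, past it without replicate 3. Slopes below changed sign without passing. With total counts alone they were 0.0646 (Cyp46a1, fasting, control), -0.50 (Hcn3, hepatocyte, control), 0.0677 (Hcn3, lipogenic, MCD) and 0.0966 (Chrna4, sterol, MCD). With limma-voom they were 0.010 (Hcn3, lipogenic), 0.0719 (Chrna4, sterol) and -0.026 (Hcn3, sterol), all MCD. With the sex-linked covariate they were -0.028 (Hcn3, sterol) and -0.039 (Hcn3, hepatocyte) in control, and 0.0541 (Hcn3, lipogenic), 0.41 (Chrna4, sterol) and 0.0692 (Cyp46a1, sterol) in MCD liver. With 1 library left out, control slopes ran from -0.15 to 0.19 (Hcn3, lipogenic), -0.18 to 0.12 (Hcn3, sterol), -0.19 to 0.53 (Cyp46a1, sterol) and -0.19 to 0.13 (Hcn3, hepatocyte). The MCD slopes ran from -0.0854 to 0.13 (Hcn3, lipogenic), -0.12 to 0.15 (Chrna4, sterol), -0.18 to 0.15 (Hcn3, sterol), -0.24 to 0.0478 (Hcn3, fasting), -0.0973 to 0.0087 (Cyp46a1, fasting) and -0.23 to 0.0281 (Hcn3, hepatocyte).

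Of the correlations, Chrna4 with the sterol score in control was 0.717 and no longer past the threshold without its 2 farthest libraries, and Chrna4 with the lipogenic score in MCD liver was 0.792 and past it with total counts alone. Without the 2 farthest libraries the sign turned for Hcn3 in control (lipogenic -0.37, sterol -0.27, hepatocyte -0.17), Hcn3 in MCD liver (lipogenic -0.10, fasting 0.38, hepatocyte 0.40) and Cyp46a1 (fasting, MCD, 0.011). With total counts alone it turned for Chrna4 (fasting, control, 0.0018) and Hcn3 (hepatocyte, control, -0.66; sterol, MCD, 0.023), and after regression on the sex-linked score for Hcn3 (hepatocyte, control, -0.11) and Cyp46a1 (sterol, MCD, 0.20). Without control replicate 4 or 12 the r ran from -0.23 to 0.41 (Hcn3, lipogenic), -0.30 to 0.33 (Hcn3, sterol), -0.26 to -0.046 (Hcn3, hepatocyte) and -0.25 to 0.27 (Cyp46a1, sterol).

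Lipogenic genes correlated with Chrna4 in control numbered 11 after regression on the sex-linked score, 1 without the 2 farthest libraries and 4 without control replicates 3 and 5, and with Hcn3 and Cyp46a1 0 to 1 without replicate 4 or 12. The median r of Hcn3 with them turned to -0.055 in control and -0.045 in MCD liver without the 2 farthest libraries and to -0.18 without control replicate 4 (0.235 without replicate 12). In MCD liver they numbered 2 with prior counts of 0.5 and 5, 0 on residuals and 0 without 2 libraries for Chrna4, and 1 with total counts alone, 0 on residuals and 1 without 2 libraries for Cyp46a1.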
